A study of Caenorhabditis elegans with 80 samples.

Results

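The genes described here lie on chromosome II of Caenorhabditis elegans. Their differences between inbred strains were correlated between worms raised at 16 °C and worms raised at 24 °C. A probe was taken when it carried the name of 1 gene on that chromosome and when Pearson's r between its log ratios at the 2 temperatures, over 39 pairs of strains, was at least 0.5. Genes of the families whose symbols begin with fbx, math-, bath-, btb-, gst-, clec-, nhr-, ugt-, col- or sr were left out. This gave 42 probes of 40 genes among the 2539 probes of chromosome II that could have entered (2387 genes) and among 23232 probes on the array.

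The arrays came from recombinant inbred strains of a cross between N2 (Bristol, the laboratory wild type) and CB4856 (an isolate from Hawaii), each strain carrying a fixed mosaic of the 2 parental genomes. Hermaphrodite populations grown on Escherichia coli OP50 were taken as L3 larvae, at an age of 72 h in the cold (16 °C) and 40 h in the warm (24 °C), so growth temperature and age in hours moved together. The RNA of 2 strains, chosen by the study to differ as much as possible in genotype, was hybridised to each array of long oligonucleotide probes with Cy3 and Cy5, and 40 arrays were made per temperature. The same 2 strains on the same dyes stood on an array at both temperatures in 39 cases, each a single array per temperature. The RNA came from whole animals, so fewer cells of a type and less RNA per cell cannot be told apart. The dye in the numerator and the base of the logarithm are not stated, and the values were read as log2. A positive ratio therefore has no known strain, and no result below says whether the N2 or the CB4856 allele gave more signal.

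In inbred strains of such a cross, neighbouring genes are inherited together in long blocks, because few crossovers separate them. A gene whose own alleles differ in output, or whose alleles differ in sequence under a probe, gives a ratio that follows the block it lies in. Genes of one block then follow each other over the strains, with the same sign where the same parent carries the stronger allele and with opposite signs where different parents do. A transcript difference and a sequence difference under the probe cannot be told apart in these ratios. The families left out of the set include F-box, MATH and BTB proteins, many of which act as substrate adaptors of ubiquitin ligases and which form large clusters on the arms of this chromosome.

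Before the members are described, 1 pair of strains has to be set apart. Over the 42 probes, the ratios of a strain pair at 16 °C and at 24 °C correlated with a median r of 0.728 and a maximum of 0.883. In WN3/WN22 the same correlation was -0.701. Of 16 probes past 1 log2 unit at both temperatures in that pair, 12 had opposite signs and 4 the same sign, whereas in the other 38 pairs the signs were the same in 617 of 651 such cases. For sdz-24 the pair read 8.17 at 16 °C and -9.85 at 24 °C, and for puf-6 it read -7.07 and 6.17. R03H10.6 did not turn in this way, with -0.21 and 8.45. The number of members, the number of near partner calls and the r of some members are given below with and without this pair. The partners of single members and the groups drawn from them are given with it only. The ratios of all arrays were centred close to 0, with array medians between -0.02 and 0.04.

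The members lay toward both ends and in the middle of the chromosome but were dense on its left side. The 5229 annotated genes of chromosome II were put in order and cut into equal stretches. The left stretch held 25 member genes of the 757 that could enter (3.3%). The middle stretch held 6 of 813 (0.738%) and the right stretch 9 of 817 (1.1%). No member stood between lin-5, at place 2941 of the gene order, and W02B12.1, at place 4174. The outer stretches are called the left and the right arm below. Members made up 1.65% of the probes that could enter on chromosome II, while 1.24% of all 23232 probes reached an r of 0.5. The share of all probes includes those without a gene and those of the families left out. By the same rule chromosome V gave 70 of 3309 probes (2.12%) and chromosome III 12 of 2071 (0.579%). Chromosome I gave 0.944%, IV 0.753% and X 0.682%. These counts come from the values that chose the set and are a description.

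Most members had no gene name. A name was given to 11 of the 40 genes (27.5%), against 46.2% of the 2387 genes that could enter, and the other 29 genes carried a sequence name such as B0281.5. The annotation lists 37 members as protein coding and 3 as pseudogenes, namely F12A10.2, Y57A10A.1 and lips-16, which is 7.5% against 4.4% of the genes that could enter. Another annotated gene overlapped 9 members, among them sdz-24 with sri-45, W02B12.1 with rsp-2 and puf-6 with F18A11.7. The files give no strand for the probes, so the signal of such genes and their partners cannot be told apart.

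The repeatable differences were wide. The SD of the ratio over the 39 pairs had a median of 2.06 log2 units at 16 °C and 2.48 at 24 °C among the members, against 0.967 and 1.05 among all probes of the chromosome that could enter. These SDs come from the ratios that chose the set. A ratio that is mostly noise seldom reaches an r of 0.5, so the width is a description. The median geometric mean of the 2 SDs was 2.32 for the members. Probes that passed the same rule had 2.46 on chromosome V, 2.31 on III, 2.03 on IV, 1.61 on I and 1.45 on X. The lowest and highest member SDs were 0.639 and 5.22 at the lower temperature, and 0.702 and 6.25 at the higher. Values of r ran from 0.509 to 0.806 with a median of 0.617, and all of these chose the set. Just inside the threshold stood C17F4.3 and F08D12.2 at 0.509 and Y110A2AL.3 at 0.511, and just outside it Y110A2AL.9 at 0.498, F33G12.6 at 0.497 and lgc-20 at 0.49. Left out in turn, single strain pairs took 8 probes below 0.5, and 7 of these stayed at 0.428 or more.

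**Figure D1:**
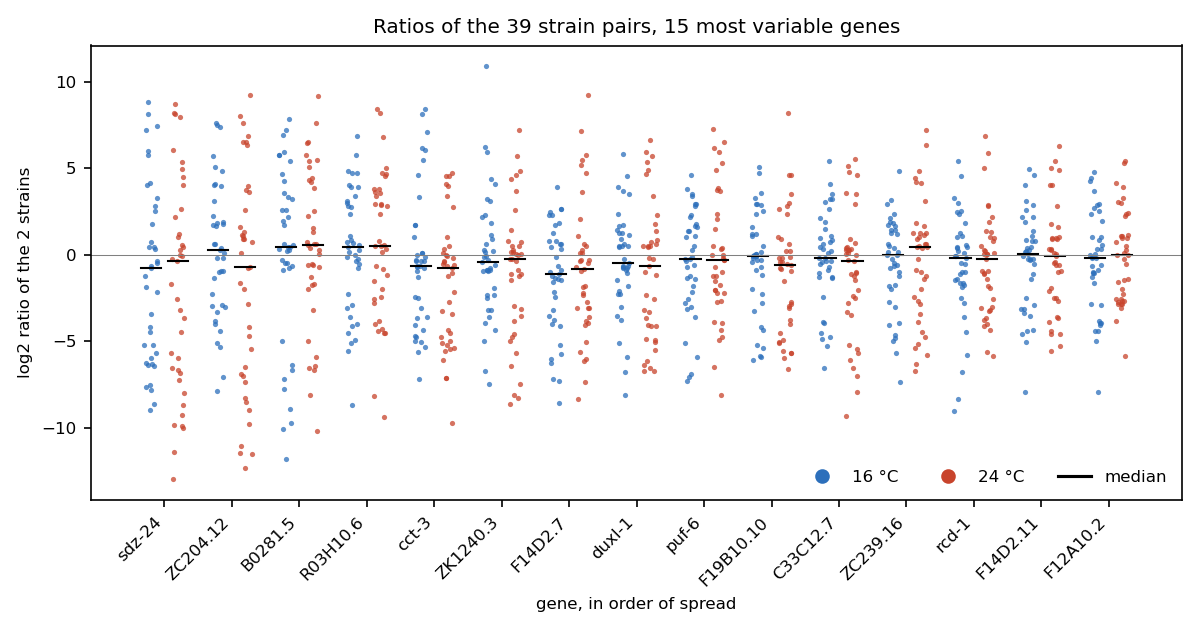
Log2 ratio of the 2 strains (vertical axis) in each of the 39 strain pairs for the 15 members with the widest spread (horizontal axis, a gene with 2 probes shown by the wider). Blue points are 16 °C, red points 24 °C and black bars the medians. The medians lie near 0 while single pairs of sdz-24 reach from -12.98 to 8.83.

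The widest of all was sdz-24 (K07E8.3), the first member from the left end, whose name marks a transcript of the early zygote that depends on the transcription factor SKN-1. Its ratio had a lowest value of -8.98, a median of -0.76 and a highest value of 8.83 at 16 °C. At 24 °C the corresponding values were -12.98, -0.33 and 8.74. At 16 °C 11 pairs lay above 2, 17 below -2 and 8 within 1 unit of 0, and at 24 °C 11, 18 and 7. Past 2 units at both temperatures, 24 pairs kept their sign and 1 turned it. The r of 0.755 became 0.879 without WN3/WN22.

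Next along the arm came the neighbours ZC204.12 and duxl-1 (ZC204.2), which is named as a double-homeobox-like gene, a class of DNA-binding proteins. ZC204.12 ranged from -7.9 through a median of 0.27 to 7.66 at 16 °C and from -12.35 through -0.7 to 9.27 at 24 °C. Its r was the lower of the pair, 0.567 against 0.618 for duxl-1, and both rose without WN3/WN22, to 0.718 and 0.74. The ratios of duxl-1 had extremes of -8.1 and 5.83 in the cold and of -6.7 and 6.66 in the warm.

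Farther in lay cct-3 (F54A3.3), the gamma subunit of the cytosolic chaperonin CCT, which folds actin and tubulin. Its lowest, median and highest ratios were -7.16, -0.65 and 8.42 at 16 °C and -9.72, -0.73 and 4.73 at 24 °C. The gene is represented by this probe alone. B0281.5 stood close to it in gene order and spread more widely, with SDs of 5.22 and 4.61 against 4.05 and 3.69 for cct-3. Its ratios went from -11.79 through 0.47 to 7.89 at 16 °C and from -10.19 through 0.6 to 9.18 at 24 °C. Without WN3/WN22 the r of cct-3 rose from 0.741 to 0.86 and that of B0281.5 from 0.704 to 0.829.

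ZK1240.9 and ZK1240.3 are neighbours in the annotation. The probe of ZK1240.3 had an r of 0.699 and SDs of 3.57 and 3.94. ZK1240.9 has 3 probes that disagreed, since the member probe had an r of 0.689 and the others 0.00125 and -0.00715. The difference therefore belongs to that probe, and its extension to the whole gene is uncertain.

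**Figure D2:**
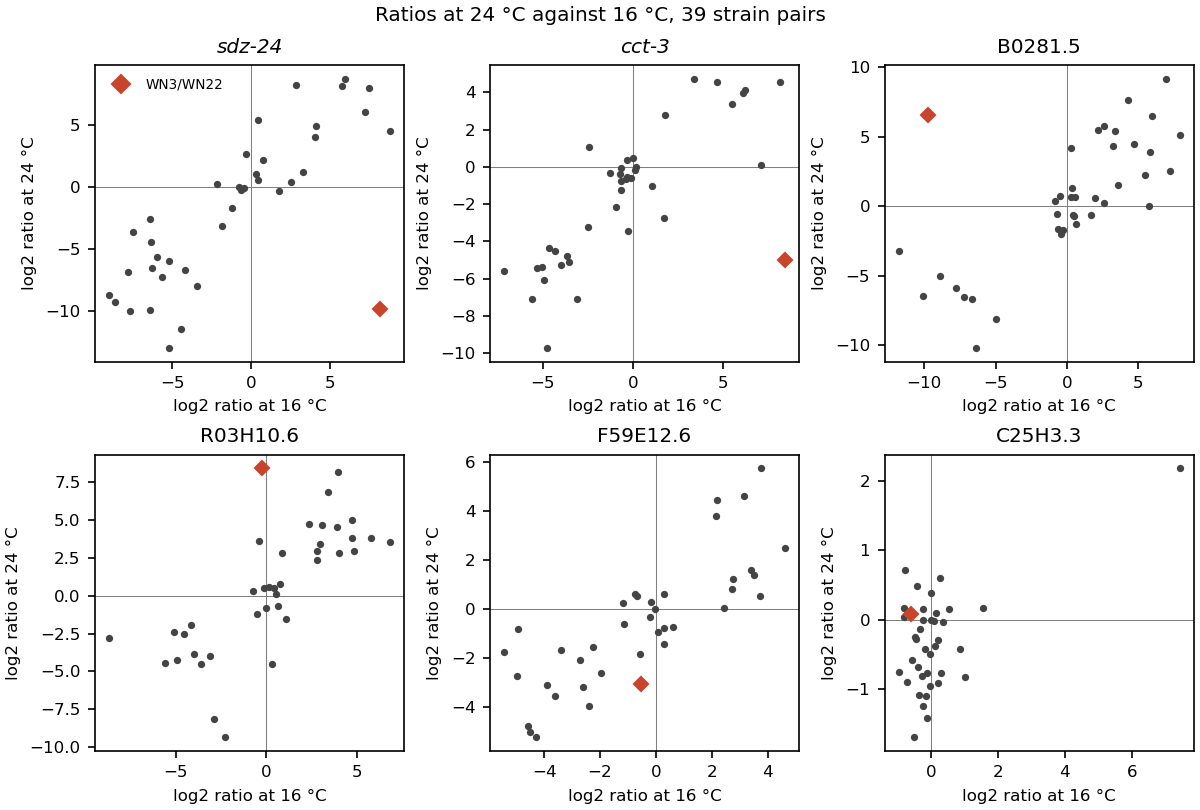
Log2 ratio at 24 °C (vertical axis) against the log2 ratio at 16 °C (horizontal axis) for 6 members, each point being 1 of the 39 strain pairs and the red diamond WN3/WN22. In sdz-24, cct-3 and B0281.5 the diamond lies in the corner opposite to the trend, and in C25H3.3 a single point at 7.43 and 2.19 stands apart from all others.

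On the inner side of the left arm, R03H10.6 had the widest ratios, with a lowest value of -8.66, a median of 0.43 and a highest value of 6.86 at 16 °C and of -9.36, 0.53 and 8.45 at 24 °C. Past 2 units at both temperatures all 24 pairs kept their sign. F14D2.7 and F14D2.11, a few genes apart, had r values of 0.617 and 0.644, and F19B10.10 had 0.725. None of these genes carries a name or a role in the files.

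The largest r belonged to F59E12.6, at 0.806, in the middle of the gene order. Its ratios went from -5.43 through -0.54 to 4.61 at 16 °C and from -5.23 through -0.75 to 5.74 at 24 °C. Its other 2 probes had r values of 0.404 and 0.427 and were not members, although they correlated with the member probe within a temperature at 0.357 to 0.785. F12A10.2, an annotated pseudogene, had 2 member probes with r values of 0.781 and 0.783, and these followed each other at 0.891 at 16 °C and 0.94 at 24 °C. F10E7.2 likewise had 2 member probes, which correlated at 0.781 and 0.7.

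Another gene of the middle stretch, C25H3.3, entered through a single strain pair. Its ratio lay between -0.96 and 7.43 at 16 °C with 36 of 39 pairs within 1 unit of 0, and the highest value came from WN29/WN78, which read 2.19 at 24 °C. Without that pair its r fell from 0.562 to 0.0755, and Spearman's rho over all pairs was 0.101, the lowest of the set. For the other members rho reached up to 0.828.

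Among genes of known function, some varied little. The probe of lin-5 (T09A5.10), a coiled-coil protein that positions the mitotic spindle, had an r of 0.557 with extremes of -2.2 and 1.72 in the cold and of -1.99 and 2.4 in the warm. Its SD stood near the median of the chromosome's probes, so this is a small difference. The probes of trpl-5 (T16A1.7) and rcd-1 (T24E12.5) were wider, with r values of 0.582 and 0.532 and ratios at 16 °C from -5.84 to 3.74 and from -9.03 to 5.43.

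On the right arm, the widest ratios were those of puf-6 (F18A11.1), a member of the Pumilio family of RNA-binding proteins. They went from -7.32 through -0.22 to 4.63 at 16 °C and from -8.11 through -0.29 to 7.27 at 24 °C, and the r of 0.612 became 0.785 without WN3/WN22. The probe of ctl-1 (Y54G11A.6), a catalase that breaks down hydrogen peroxide, had an r of 0.701, with ratios from -4.45 through 0.12 to 3.99 and from -4.27 through -0.82 to 5.54. Since ctl-1 has near-identical neighbours in tandem, ctl-2 and ctl-3, the copy behind its signal is uncertain. phat-8 (F15A4.6), named for a family of toxin-like proteins of the pharyngeal gland, had an r of 0.724, and lips-16 (Y38E10A.10), a lipase-related pseudogene, one of 0.666.

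Among the remaining wide members were C33C12.7 and ZC239.16, both of the left arm. C33C12.7 had a lowest ratio of -6.52, a median of -0.15 and a highest of 5.42 in the cold and -9.3, -0.34 and 5.53 in the warm, with 12 pairs past 2 units at both temperatures in the same direction and 1 in the opposite. ZC239.16 had -7.33, -0.01 and 4.86 in the cold and -6.71, 0.44 and 7.23 in the warm, with 8 such pairs in the same direction and 1 in the opposite. Over all members, 370 combinations of a probe and a strain pair lay past 2 units at both temperatures with the same sign and 11 with opposite signs, and 10 of the 11 came from WN3/WN22. At the narrow end, W02B12.1 stayed between -1.25 and 1.45 in the cold and between -1.75 and 1.74 in the warm, and F07E5.5 between -1.69 and 1.14 and between -2.54 and 1.73. Y53F4B.23, the last member toward the right end, stayed between -1.87 and 1.74 and between -1.1 and 2.45. In these 3 genes no pair passed 2 units at both temperatures.

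Functional groups defined by symbol held 1 member among 123 eligible probes (0.813%), against 1.65% of all eligible probes of the chromosome. Of 13 lists covering cytochromes P450, heat shock proteins, transporters, neuropeptides, antimicrobial proteins, proteases, lipid metabolism, ion channels, sperm proteins, ribosomal proteins, the ubiquitin system, cuticle shape and histones, 12 held no member, the histone list because it had no eligible probe. The exception was lips-16, 1 of 17 lipid metabolism probes. The highest r was 0.466 among 22 sperm probes (nspe-5) and 0.49 among 15 ion channel probes (lgc-20), and the medians of the lists lay between -0.103 and 0.154, against 0.0444 for all probes that could enter.

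Whether temperature changed the size of these differences was asked with the Pitman-Morgan test, which compares the variances of paired values, adjusted by Benjamini-Hochberg over 23232 probes at 0.05. Among the members, 3 had a larger spread at 24 °C, against 6.12% of all probes, and 1 a larger spread at 16 °C, against 3.0%. The direction of the background turned with the scaling, from 1421 probes with a larger spread at 24 °C and 698 at 16 °C to 605 and 1339 with every array centred and scaled, and to 850 and 932 with each temperature divided by its median SD. Together the calls among members were 4 of 42 (9.52%) against 9.12% of all probes, a share near the background. The SD was larger at 24 °C in 30 of 42 members and in 14182 of all 23232 probes.

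The 3 genes with the larger spread at 24 °C were ZC204.12 (SD 3.95 and 6.25 over 39 pairs, adjusted p = 0.022), F15D4.5 (1.9 and 2.98, adjusted p = 0.018) and Y38E10A.14 (1.6 and 2.45, adjusted p = 0.038). All 3 calls were lost without the 5 pairs that hold a recurring strain, where the adjusted p values were 0.057, 0.053 and 0.097, and when every array was centred and scaled. C25H3.3 had SDs of 1.31 and 0.7 (adjusted p = 0.0012) and this rested on WN29/WN78, since with ranks the adjusted p was 0.88 and the direction turned.

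**Figure D3:**
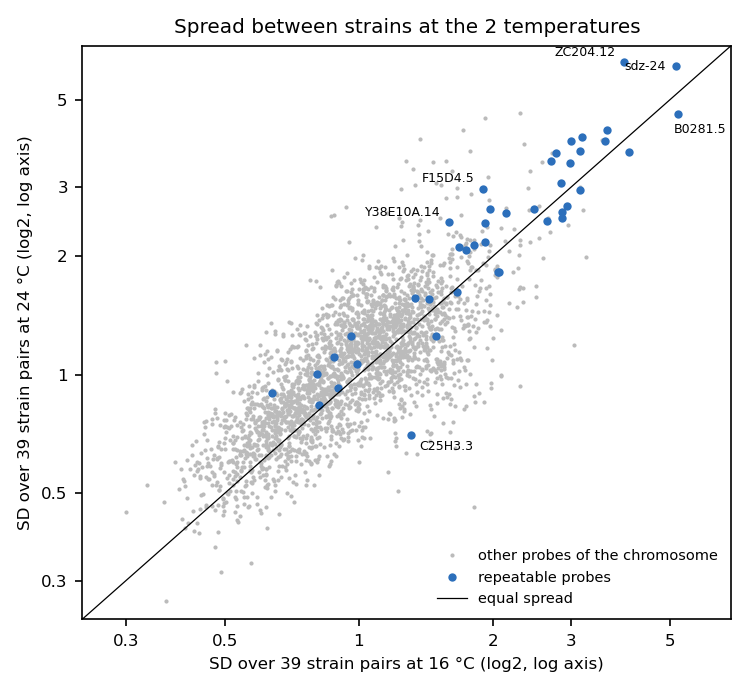
SD of the log2 ratio over 39 strain pairs at 24 °C (vertical, log axis) against that at 16 °C (horizontal, log axis) for the 2539 probes of chromosome II that could enter the set. Members are blue, other probes grey, and the line marks equal spread. Members reach from 0.639 to 5.22 at 16 °C, and C25H3.3 lies farthest below the line among them.

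Some members followed each other along the chromosome. To keep the noise of a single array out of the comparison, each member at one temperature was correlated with every other probe at the other temperature, in both directions, and a partner was called when both adjusted p values, over all probes outside its own gene, were below 0.05 with the same sign. Within 2 Mb on chromosome II, 76 of 35490 combinations of a member and a probe were called (0.214%). Farther away on chromosome II, 22 of 93106 were called (0.0236%). A link between 2 members can count once in the scan of each, and probes of 1 gene count separately. Distinct pairs of linked genes are therefore fewer than the calls. On the other chromosomes 0 of 600390 were called (0.0%), and limma's moderated test also called 0. A single direction gave 22 (0.00366%) and 16 (0.00266%) calls there. The unadjusted p of r was below 0.05 in both directions with the same sign in 1299 combinations on other chromosomes (0.216%). It was so in 1260 near (3.55%) and 769 farther combinations (0.826%), and in 770 with probes without a position (0.312%). Among probes without a position, 11 of 246708 combinations were called (0.00446%). In 1 direction, 10.3% of the near combinations had an unadjusted p below 0.05, against 6.57% of the farther ones and 5.08% of those on other chromosomes.

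The near count depended on the strain pairs used. It was 231 without WN3/WN22 and 19 without the 5 pairs of recurring strains, and leaving out any other single pair gave 38 to 91. It was 38 to 49 without WN51/WN74, WN67/WN26, WN38/WN47, WN58/WN38, WN24/WN49, WN61/WN39, WN2/WN52, WN42/WN11, WN57/WN32, WN75/WN66, WN31/WN44 or WN16/WN34. With the first 2 principal components of all probes removed, 1 near and 0 farther combinations were called, and at an adjusted p of 0.01 there were 11 and 5. In none of these cases was a partner called on another chromosome.

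Of the 42 probes, 17 had at least 1 partner in their own scan and 25 had none. Of these 25, the probes of duxl-1, K02F6.4 and Y38E10A.14 were called as partners in the scans of other members, which left 22 probes in no call. The partners were 38 different probes, of which 33 lay on chromosome II and 5 had no position. Members themselves made up 18 of the 33 (54.5%), and 14 belonged to the families left out of the set (42.4%). Of all 3063 probes on the chromosome, 1.37% were members and 524 (17.1%) belonged to those families. Of the 524, 20 had an r of at least 0.5 between the temperatures. Being called in both directions favours probes that repeat between the temperatures, which is also what chose the members. The shares among the partners are therefore a description. The partners from the left-out families were math-20, math-39, math-40, math-41, bath-2, bath-27, bath-28, btb-2, btb-14, clec-10, fbxa-3 and fbxc-36. Some of them had more than 1 probe, and the remaining partner probe on chromosome II was that of R12C12.7. The closest companion of sdz-24 over the genome was clec-10, a C-type lectin, with a mean r of 0.718 over the 2 directions, followed by math-40 with 0.709 and fbxa-3 with 0.665.

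Joined by these calls, 17 member genes formed 2 groups, and 23 were in neither. The groups were drawn from the 76 near and 22 farther calls over all 39 strain pairs and were not drawn under other settings. The first, on the outer left arm, held 8 genes. ZC204.12 (mean r of 0.616 with sdz-24), duxl-1 (0.637), cct-3 (0.646) and ZK1240.3 (0.636) ran with sdz-24. B0281.5 (-0.554), trpl-5 (-0.57) and K02F6.4 (-0.547) ran against it. The last 3 were joined to the group through calls with cct-3, B0281.5 or ZK1240.3, and not all pairs within the group were called themselves.

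The second group held 9 genes around R03H10.6. Y46D2A.1 (0.704) and Y57A10A.1 (0.615) ran with it. F59E12.6 (-0.733), F12A10.2 (-0.717), F19B10.10 (-0.675), F14D2.7 (-0.656), F14D2.11 (-0.613) and Y38E10A.14 (-0.516) ran against it. This group reached from the inner left arm across the middle of the chromosome, and Y57A10A.1 and Y38E10A.14 lie on its right arm. Neither right-arm gene was called with R03H10.6 itself, and nor was F14D2.11. Y57A10A.1 was joined to the group through calls with F59E12.6 and F12A10.2. Y38E10A.14 was joined only through a call with the narrower probe of F12A10.2. That call stood near the limit, with adjusted p values of r in the scan of 0.05 and 0.032. Between the leading genes of the groups, sdz-24 and R03H10.6, the mean r was -0.313.

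**Figure D4:**
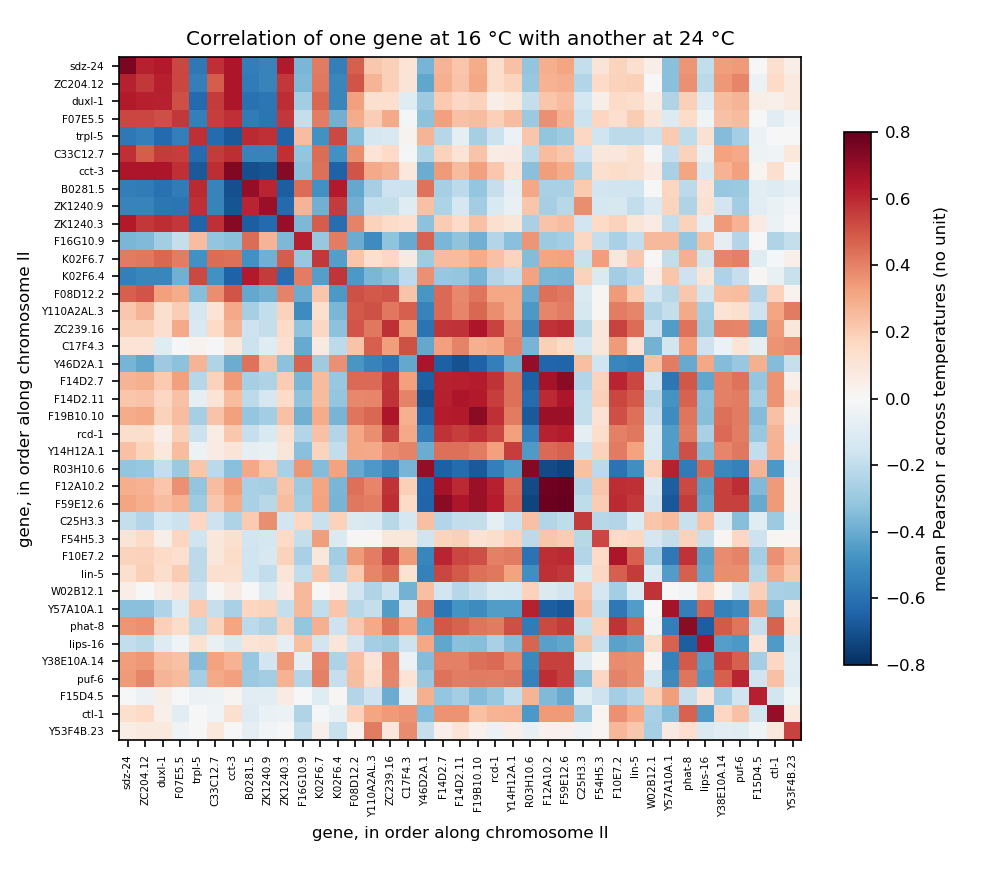
Mean Pearson r (colour, no unit) between the ratio of a gene at one temperature and that of another gene at the other temperature over 39 strain pairs, for 39 of the 40 member genes in chromosome order on both axes. The diagonal is each gene's own r between the temperatures. Red and blue squares stand beside each other within the outer left block from sdz-24 to K02F6.4 and within the block from Y46D2A.1 to F59E12.6.

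Neighbours that ran in opposite directions were nearly as common as neighbours that ran together. Among member genes within 2 Mb of each other with a mean r of at least 0.3 in size, 108 pairs had the same sign and 98 opposite signs. Without WN3/WN22 these numbers were 115 and 101. cct-3 and B0281.5, separated by few genes, gave -0.705 (adjusted p = 0.014 and 0.0001 in the 2 directions of the scan), and cct-3 and ZK1240.3, on the far side of B0281.5, gave 0.73 (0.0041 and 0.00013). Further in, Y46D2A.1 and F14D2.11 gave -0.698 (0.0031 and 0.013), and F12A10.2 and F59E12.6 gave 0.785 (0.0081 and 5.4e-09). On the right arm phat-8 and lips-16 gave -0.658, which the scan did not call in both directions. Both genes of each pair were chosen for repeating between the temperatures, so the 2 directions are not separate tests. The called pairs named here were also picked by the size of r, and their adjusted p values are a description.

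The 4 largest values of each sign among near members had sizes of mean r from 0.692 to 0.785. They include the pairs above except phat-8 and lips-16. The range was 0.692 to 0.828 with Spearman's rho, 0.674 to 0.837 without the 2 strain pairs farthest from the median, 0.704 to 0.829 without WN3/WN22 and 0.666 to 0.786 without the recurring strains. The pairs were chosen by size, so the values are a description.

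**Figure D5:**
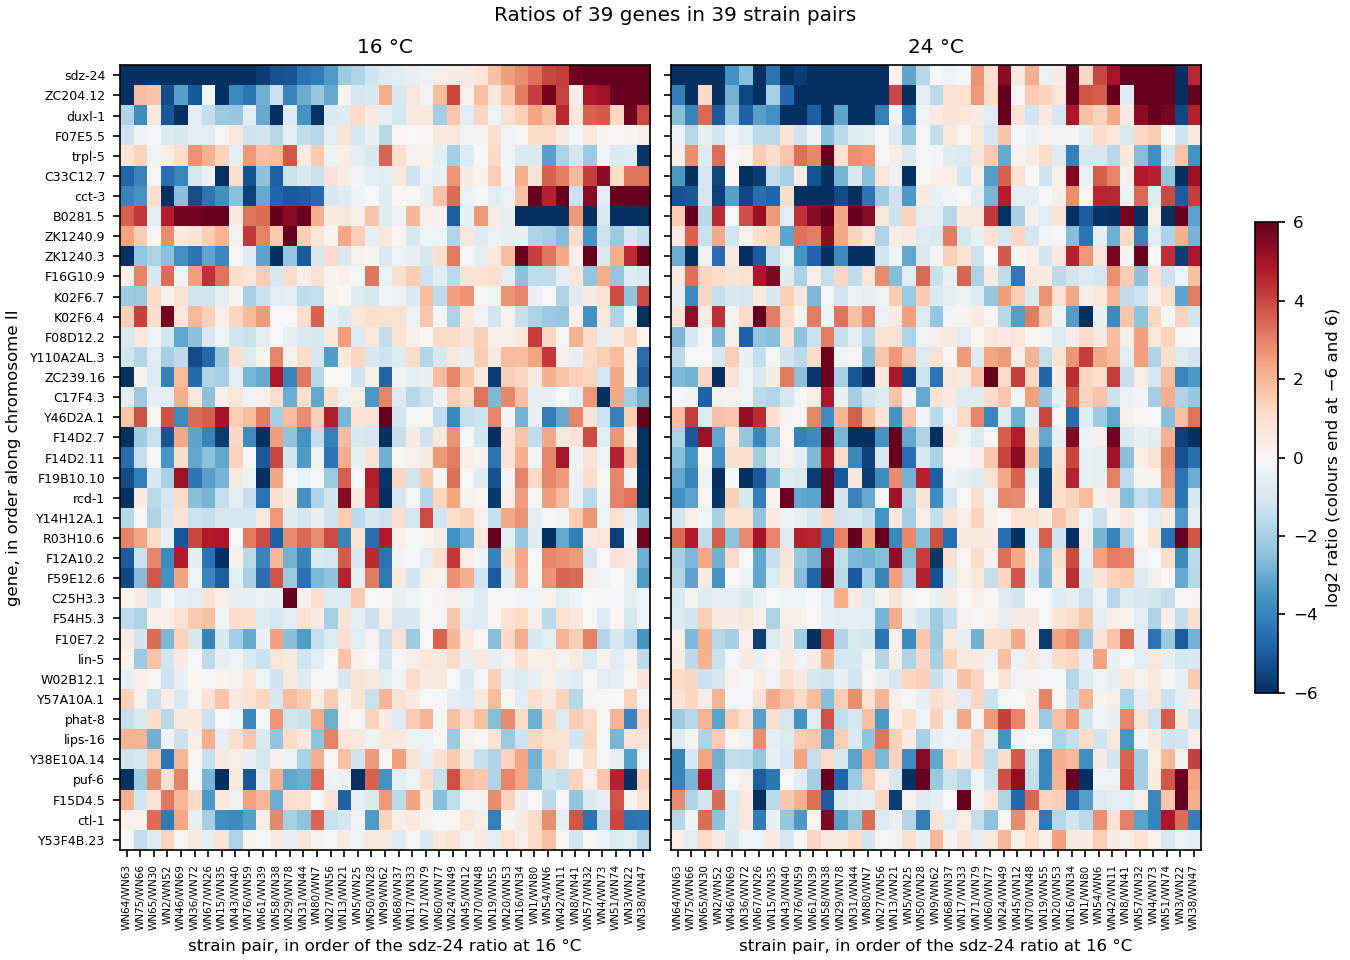
Log2 ratio (colour, ending at -6 and 6) of 39 of the 40 member genes (rows, in chromosome order) in the 39 strain pairs (columns, ordered by the ratio of sdz-24 at 16 °C), at 16 °C on the left and 24 °C on the right. The rows of cct-3 and ZK1240.3 run with that of sdz-24 and the row of B0281.5 against it, and the pair WN3/WN22, second from the right, changes colour between the panels for sdz-24.

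The likeness fell with distance but did not reach the level seen between chromosomes. Member genes up to 0.5 Mb apart had a median size of mean r of 0.491, and 100 of 112 pairs reached 0.3 (89.3%). From 0.5 to 2 Mb the median was 0.292, from 2 to 5 Mb it was 0.244, and over 5 Mb it was 0.213 with 96 of 293 pairs at 0.3 or more (32.8%). Members against probes that passed the same rule on chromosome V gave a median of 0.11 and 6.21% at 0.3 or more, those on chromosome I 0.118 and 5.34%, and those on chromosomes III, IV and X 0.111 and 4.22%. Members against other probes of chromosome II more than 5 Mb away gave 0.0843 and 1.95%. The share over 5 Mb was 30.7% without WN3/WN22, 48.8% without the recurring strains and 12.3% after the first 2 principal components were removed. Pairs of genes share strains and arrays, and the numbers carry no test.

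Strains that stood on 2 arrays gave a look at the members across different partners. WN38 was labelled with Cy5 on the array WN58/WN38 and with Cy3 on WN38/WN47, and the 42 members correlated between these arrays at -0.832 at 16 °C and -0.854 at 24 °C, with opposite signs in 25 of 27 and 28 of 30 probes past 1 unit on both. All probes of the array gave 0.0533 and -0.135. WN80, also on opposite dyes, gave -0.586 and -0.606 over the members, with opposite signs in 11 of 13 and 16 of 18. WN65, also on opposite dyes, gave -0.375 at 24 °C, with 8 of 14 opposite, and -0.367 between WN65/WN30 at 16 °C and WN14/WN65 at 24 °C, with 4 of 9 opposite and 5 of 9 the same. The 2 arrays that the rule did not use share WN14 on the same dye, WN14/WN18 at 16 °C and WN14/WN65 at 24 °C, and correlated at 0.363 over the members, with 3 of 3 probes past 1 unit in the same direction. The other strain differs between the arrays of each comparison, and the members are not independent of each other. The arrays of WN38 and WN80 and those of WN65/WN30 were among those that chose the set.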

How the data were processed

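The values are log2 ratios between the strains of an array, as deposited by the authors after their normalization, for 23232 probes on 80 arrays, none missing. The submitters' processing notes name limma. The sources used here do not give the steps, the base of the logarithm (log2 is assumed) or which dye is the numerator. The median over arrays of an array's median absolute ratio was 0.59 at 16 °C and 0.66 at 24 °C. Ratios were not compared in level across temperatures. The ratios carry no intensities, so brightness above background could not be judged, and precision is set by the number of arrays. Nothing in the labels says that the arrays of a temperature are repeat cultures of a strain pair, so each p-value measures the spread between strain pairs.

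Gene names came from the platform's probe table (17447 probes with 1 gene, 5785 with none), of which 17358 were joined by gene identifier to the WBcel235 annotation of RefSeq. No build is named for the files, so that annotation gave only names, gene order and nearness. The symbols are those of the array's design unless the annotation gave a newer one.

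Strain pairs were matched by the Cy3 and Cy5 strains in the labels. Pearson's r and Spearman's rho were computed over 39 pairs, spread was tested with the Pitman-Morgan test, and partners with the two-sided p of r, adjusted by Benjamini-Hochberg over 23232 probes less those of the same gene. Alternatives were the omission of WN3/WN22 or of the 5 pairs with a recurring strain (WN38, WN65, WN80), arrays centred on the median and divided by the median absolute deviation, ranks, removal of 2 principal components at each temperature, other thresholds and windows, each temperature divided by its median SD, and limma's moderated test. Leaving out each strain pair in turn was added after the data were seen. Named genes are the 15 members of widest spread (geometric mean of the SDs), members with a gene name, the 3 nearest to the threshold on either side, those past the spread test and the 3 probes most like each of the 5 widest members. The values of 1 named member are not reported here, and the plots over genes leave it out, while the counts include it. Others named in the text were chosen after their values were seen. The members and gene lists were chosen with earlier results of these data known. Scripts were tested on simulated data. The tools were Python 3.11.15 with numpy 2.4.6, scipy 1.17.1, pandas 2.3.3 and networkx, and R 4.3.3 with limma 3.58.1.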

Additional observations from a re-analysis of the deposited data

Results flagged for a closer look

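The spread over strain pairs differed between the temperatures in 4 members by the Pitman-Morgan test, adjusted over all probes. The SD was larger at 24 °C for ZC204.12 (3.95 and 6.25, adjusted p = 0.022), Y38E10A.14 (1.6 and 2.45, adjusted p = 0.038) and F15D4.5 (1.9 and 2.98, adjusted p = 0.018). It was larger at 16 °C for C25H3.3 (1.31 and 0.7, adjusted p = 0.0012), where 1 strain pair, WN29/WN78, read 7.43. A share of 9.12% of all probes passed the same test.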

How the results depend on the processing

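The rule gave 42 members. Leaving out WN3/WN22 gave 48, of which 41 were shared with the 42, arrays centred and scaled gave 43 (42 shared), omission of the recurring strains 41 (36 shared), ranks 47 (38 shared) and removal of 2 principal components 21 (19 shared). A minimum r of 0.4 or 0.6 gave 86 or 23. Leaving out each other strain pair gave 39 to 46. Of the 3 members with a larger spread at 24 °C, the count was 0 without the recurring strains, with arrays centred and scaled and at an adjusted p of 0.01, and 1 with ranks, with components removed and with each temperature divided by its median SD. The 1 member with a larger spread at 16 °C was not called with ranks (count of 0; the adjusted p of C25H3.3 was 0.88 with the direction turned) or with components removed (0).

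The near partners numbered 76, and 231 without WN3/WN22, 19 without the recurring strains, 130 with ranks, 1 with components removed and 11 at an adjusted p of 0.01. Leaving out each other strain pair gave 38 to 91. The farther partners on chromosome II numbered 22, and 14 without the recurring strains, 35 with ranks, 0 with components removed, 5 at 0.01, 44 and 7 with windows of 1 and 4 Mb, and 34 with limma's moderated test. Leaving out each other pair gave 9 to 24. The number on other chromosomes was 0 under all of these settings. The causes were not tested. All comparisons paired the temperatures by strain pair. Precision is set by the number of arrays, since no intensities come with the ratios.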
